A study of Rattus norvegicus with 24 samples.

Results

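The amygdala was compared with the dorsal raphe within one rat line, the low responders. Members were the libraries whose labels name that line, which gave 12 of the 24 libraries of the series, 6 of amygdala and 6 of dorsal raphe. Low responders were bred over generations for little exploration of a new place, and their counterpart line, the high responders, for much exploration. All rats were 60 days old, none is labelled with a treatment, and brain tissue of each region gave poly-A RNA libraries. The labels name neither the dissection borders nor whether the 6 libraries of a region came from 6 rats or the regions from the same rats, so p-values measure the spread between libraries, which may be partly technical. With 1 line bred for each response, the line stands for its breeding history as a whole.

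The amygdala lies in the temporal forebrain and joins nuclei built largely from cortex-like excitatory neurons with others built from striatum-like inhibitory neurons. It is known for its part in fear and emotional learning. The dorsal raphe lies in the midline of the midbrain beside the cerebral aqueduct. It holds a large share of the serotonin neurons that project to the forebrain, among them neurons that reach the amygdala, mixed with other neuron types and glia. In tissue of this kind, fewer cells of a type and less RNA per cell cannot be told apart.

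Expression was counted per Ensembl gene ID. The tables do not pair IDs with symbols and 0 of 32662 IDs matched the RefSeq gene table of the assembly GRCr8, so genes are given by ID and no function is stated for them. Markers of serotonin neurons, forebrain neurons, glia, vessels or blood could not be read for the same reason, and the labelled regions were not checked against them. At least 1 count in the 12 libraries was found for 23420 IDs, and 14455 had enough counts to be tested. Library totals ranged from 9562311 to 13938794 counts. Their means were 12588302 ± 927238 in amygdala and 11732226 ± 1469612 in dorsal raphe (SD, n = 6 each), a difference within the spread (two-sided exact permutation p = 0.238). Amygdala library 3 and dorsal raphe library 5 stood apart from the others of their region. Principal component analysis used log2 CPM (counts scaled to a common library total). Dorsal raphe library 5 lay at 63.45 on the second component, which held 13.1% of the variance. The other dorsal raphe libraries were split there, with libraries 1, 3 and 4 at -34.69 to -29 and libraries 2 and 6 at 2.45 and 13.20. Amygdala library 3 lay at 55.13 on the third, with 6.49% of the variance, against -17.47 to -4.57 in the other amygdala libraries. Several results, but not all, are given without these libraries as well.

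Region separated the libraries on the first component, which held 69.0% of the variance. The 6 amygdala libraries lay between 51.36 and 62.51 and the 6 dorsal raphe libraries between -71.41 and -48.94.

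Genes named first are the leading ones by log2 fold change among those with at least 10 CPM and no overlap between regions. Toward the amygdala that was ENSRNOG00000047891. It stood at 113, 116, 139.8, 117, 121 and 112 CPM in amygdala libraries 1 to 6. The dorsal raphe libraries held 0, 0, 4, 1, 0 and 2 counts of it. Amygdala was therefore high in every library and dorsal raphe close to nothing, with no overlap. Means were 120.0 ± 10.2 CPM in amygdala and 0.107 ± 0.143 CPM in dorsal raphe (SD, n = 6 each). The log2 fold change was 10.09 (SE 0.28, adjusted p = 7.38e-12 in edgeR), and 10.93 without dorsal raphe library 3, which held 4 of the 7 dorsal raphe counts. The ratio of summed counts was 1206, with a 95% exact counting interval of 585 to 3000.2. The second was ENSRNOG00000051264, at 10.1, 11.2, 11.7, 13.2, 8.94 and 10.1 CPM in the amygdala libraries. All 6 dorsal raphe libraries held 0 counts. It was at least 256-fold higher in amygdala, from 824 counts there and a floor of 3 counts summed over dorsal raphe (edgeR adjusted p = 2.06e-08). Its rank rests on a log2 fold change of 10.05 that edgeR fitted to a region with 0 counts. That value was 9.42 with DESeq2 and 7.98 with limma voom, so the rank depends on the tool. Counting intervals and floors cover counting error only, since without molecular identifiers 1 molecule can give several reads.

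Toward the dorsal raphe the strongest was ENSRNOG00000003476. Its dorsal raphe values were 583, 336, 432, 609, 320.3 and 389 CPM in libraries 1 to 6. In amygdala it was found at 0.424, 1.51, 0.230, 0.226, 0.351 and 0.287 CPM. The groups were far apart, and among the amygdala libraries number 2 stood above the rest. Means were 445 ± 124 CPM in dorsal raphe and 0.504 ± 0.496 CPM in amygdala (SD, n = 6 each). The log2 fold change, negative where dorsal raphe is higher, was -9.79 (SE 0.36, adjusted p = 7.54e-11 in edgeR), and -10.48 without amygdala library 2. The next was ENSRNOG00000003880, at 748, 444, 552, 762, 474 and 530.2 CPM in dorsal raphe. Amygdala libraries held 1.19, 2.09, 0.230, 0.677, 1.05 and 0.862 CPM of it. Both dorsal raphe genes were highest in libraries 4 and 1 and both were highest in amygdala library 2 among the amygdala libraries. For ENSRNOG00000003880 it was -9.18 (SE 0.31, adjusted p = 4.02e-11 in edgeR), with means of 585 ± 137 against 1.02 ± 0.623 CPM (SD, n = 6 each).

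**Figure D1:**
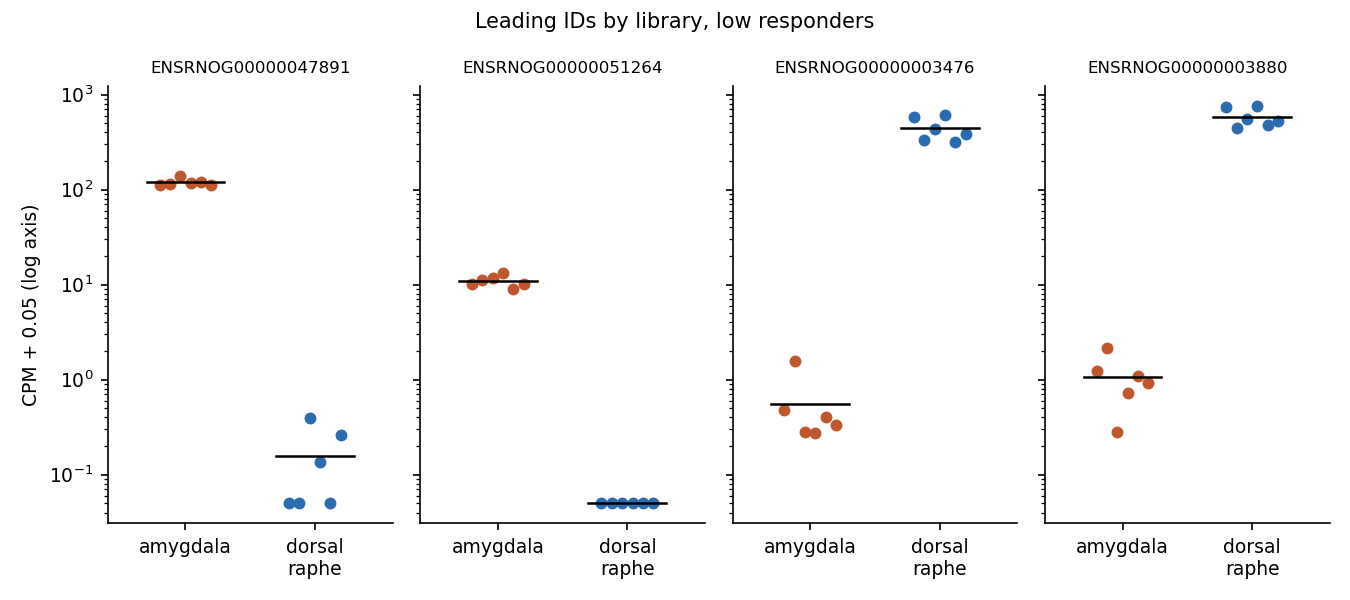
CPM plus 0.05 on a log axis in each of the 12 low-responder libraries for the strongest genes of each region, with a bar at the mean of each region. Points at the bottom of the axis are libraries with 0 counts. No overlap between the regions was a condition for choosing these genes.

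Across all tested genes, 7353 of 14455 (50.9%) passed an adjusted p of 0.05 in edgeR's quasi-likelihood test. Of these, 3610 (25.0% of the genes tested) were higher in amygdala and 3743 (25.9%) higher in dorsal raphe. The median log2 fold change was 0.73 among the former and -0.73 among the latter, and 0.00 over all genes tested. Scaling between libraries (TMM) places the bulk of the fold changes near 0. The median over all genes and the balance of the directions are thus partly set by it. The middle of the called genes was thus modest in size: the quartiles of the absolute log2 fold change were 0.45 and 1.22. More than 2-fold differences were called for 1250 genes toward amygdala and 1244 toward dorsal raphe. At more than 4-fold there were 428 and 351, at more than 8-fold 173 and 121, and at more than 16-fold 81 and 50. Among the genes tested, differences of more than 4-fold therefore included more amygdala genes by count, although the totals were close to even. The filter on low counts left out more dorsal raphe than amygdala genes, as given below. The counts at more than 2-fold were 1673 and 1785 without that filter, and 1207 and 1280 with limma voom. Without amygdala library 3 and dorsal raphe library 5 they were 1234 and 1267. In the later-numbered libraries alone they were 1698 and 1461. The difference in counts between the directions was not tested.

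**Figure D2:**
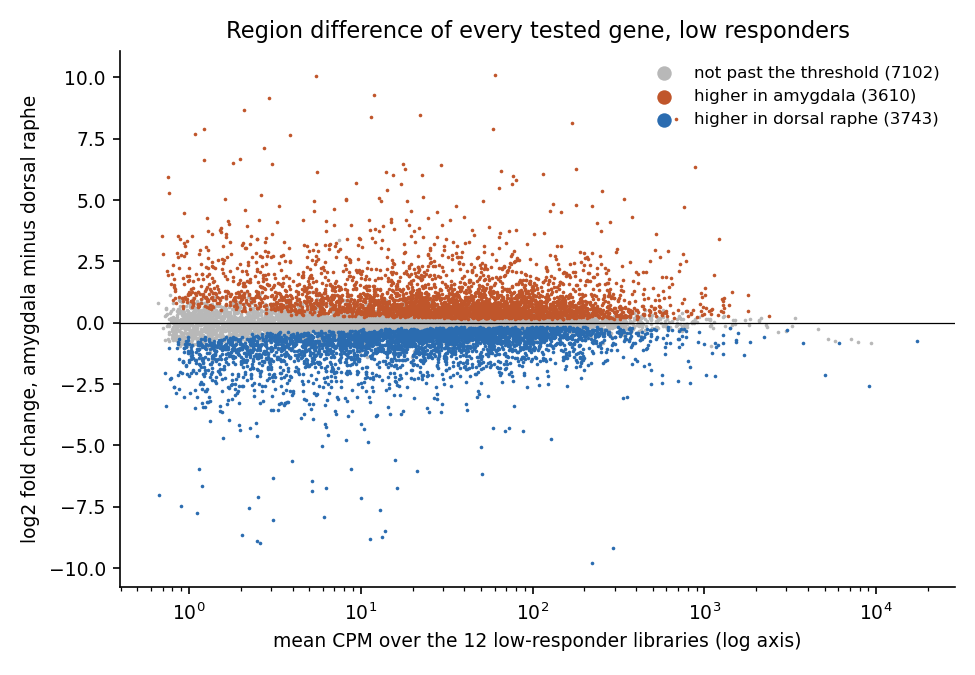
Log2 fold change of every tested gene (amygdala minus dorsal raphe) against its mean CPM over the 12 low-responder libraries on a log axis, coloured by direction where the adjusted p was under 0.05. The 3610 genes higher in amygdala and 3743 higher in dorsal raphe spread over the whole range of abundance.

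For 4742 genes (32.8%) the 6 libraries of one region all lay above the 6 of the other, 2460 (17.0%) with amygdala above and 2282 (15.8%) with dorsal raphe above. Of these 4742, 4723 were also called and 19 were not. The other 2630 called genes overlapped between regions in at least 1 library. Called genes also held under stricter limits on size. The 95% interval of the fold change lay wholly beyond 1.5-fold for 1314 genes higher in amygdala and 1293 higher in dorsal raphe, and wholly beyond 2-fold for 771 and 666.

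The genes that did not pass were a mixed group. Of 7102 such genes, 4365 had a 95% interval that lay within 1.5-fold either way, 6266 had one within 2-fold, and 817 had one within 1.2-fold. For the first of these sets the data thus bound the region difference to under 1.5-fold per gene, with intervals not adjusted for the number of genes. The remaining genes had intervals too wide for that bound.

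Direction shifted with abundance. Among 4146 genes with a mean of 1 to 10 CPM over the 12 libraries, 747 were higher in amygdala (18.0%) and 1179 higher in dorsal raphe (28.4%). Between 10 and 100 CPM, with 7788 genes, the counts were 2041 and 1988. Above 100 CPM, with 2263 genes, they turned to 775 higher in amygdala (34.2%) and 537 higher in dorsal raphe (23.7%). In the 258 tested genes with a mean under 1 CPM, the counts were 47 and 39. Amygdala calls thus made up 38.8% of the calls at 1 to 10 CPM and 59.1% above 100 CPM. The same tiers in the high-responder libraries, which share no library with these, held 734 against 1189 calls at 1 to 10 CPM and 809 against 552 above 100 CPM. Without amygdala library 3 and dorsal raphe library 5, the low-responder counts were 839 against 1286 and 918 against 685, so the tilt was present in both tiers there too. In the 2 later-numbered libraries per region alone, the count at 1 to 10 CPM was 529 against 659. Both tiers kept their order when scaled by RLE (740 against 1187 and 773 against 547) or by library size only (726 against 1181 and 764 against 547). Against a fold of 1.2 the counts were 586 against 985 at 1 to 10 CPM and 538 against 346 above 100 CPM. The shift with abundance itself was not tested.

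Precision differed between the tiers. The median standard error of the log2 fold change was 0.23 at 1 to 10 CPM, 0.12 at 10 to 100 CPM and 0.10 above 100 CPM. The smallest called log2 differences were 0.26, 0.15 and 0.15 in size in these tiers. The median size of a called log2 difference was 1.07 at 1 to 10 CPM and 0.57 above 100 CPM, and over all tested genes, called or not, it was 0.52 and 0.33. More than 2-fold differences were called for 25.1% of the genes at 1 to 10 CPM and 14.6% above 100 CPM, and smaller ones are harder to detect at low counts.

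**Figure D3:**
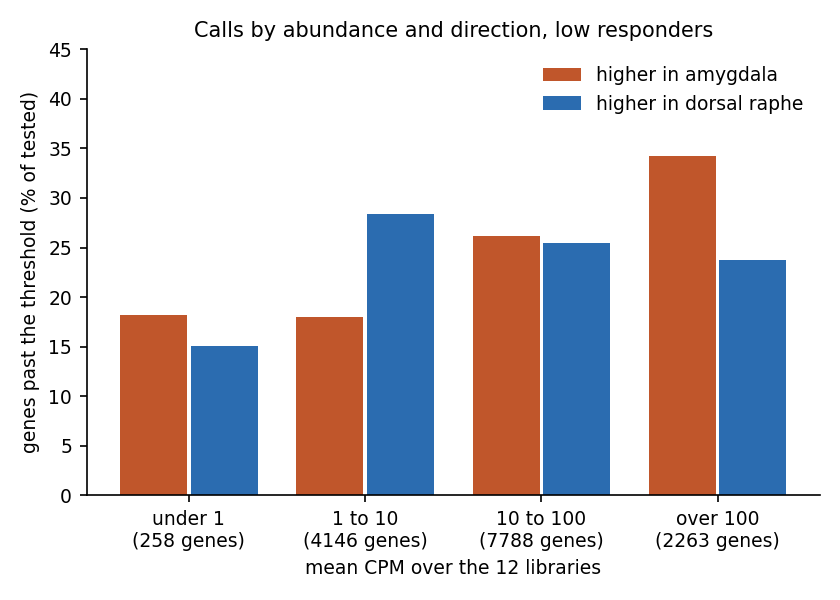
Percentage of tested genes past the threshold in each direction (bars) by mean CPM over the 12 low-responder libraries, with the number of genes tested under each pair. Dorsal raphe calls outnumber amygdala calls at 1 to 10 CPM (28.4% against 18.0%) and the order is turned above 100 CPM (23.7% against 34.2%).

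By a fixed limit of 3 summed counts, few genes were found in one region and almost not in the other. At least 1 CPM in amygdala with at most 3 counts over the 6 dorsal raphe libraries was found for 22 IDs, and the reverse for 23 IDs. Their median levels were 2.15 and 2.20 CPM, and the highest were 23.9 and 22.8 CPM. The limit left out ENSRNOG00000047891, with 120.0 CPM in amygdala and 7 counts over dorsal raphe, so these numbers and levels depend on it. By comparison, 13585 IDs had at least 1 CPM in both regions. In the high-responder libraries, 14 of the 22 had at most 3 counts over the dorsal raphe (the highest of the 22 had 14). Of the 23, 19 had at most 3 over the amygdala (the highest had 11). These numbers did not ask for at least 1 CPM in the other region there. In high responders 11 of the 22 and 9 of the 23 passed the filter on low counts and were called in the same direction, and the others were not tested there. In low responders 26 of all 45 passed the filter. Those tested had passed it through the region where they were high, so their calls followed from how they were chosen.

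The filter on low counts bears on such genes. It asked for about 10 counts in at least 6 libraries, so a gene of one region had to be present in all 6 libraries of that region. It left out 245 IDs with at least 1 CPM in a region, 92 of them higher in amygdala and 153 higher in dorsal raphe by their summed counts. With no filter, 73 of these were called higher in amygdala and 132 higher in dorsal raphe, so more dorsal raphe than amygdala genes of this kind are missing from the counts of called genes.

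The most counted genes took more of the reads in dorsal raphe. The 10 most counted IDs of each library held 3.80% to 6.37% of its counts in amygdala and 8.16% to 15.2% in dorsal raphe, with no overlap. Means were 5.75% ± 0.964 and 10.3% ± 2.60 (SD, n = 6 each; two-sided exact permutation p = 0.00216, the smallest this design can give, 0.00433 adjusted over 4 library measures). The number of IDs that together held 50% of the counts was 954 to 1022 in amygdala and 692 to 948 in dorsal raphe (means 975 ± 27.3 and 861 ± 93.4, exact p = 0.00216, adjusted 0.00433). Dorsal raphe library 5 was the extreme in both measures. Without it and amygdala library 3 the exact p was 0.00794 for each, and in the earlier-numbered libraries alone 0.0286, each the smallest for its numbers of libraries. At the depth of the smallest library, 18122 to 18528 IDs were detected in amygdala and 18406 to 18614 in dorsal raphe, a difference that did not pass (exact p = 0.0584, adjusted 0.0779).

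Genes called higher in a region by more than 2-fold held a modest part of all counts. The 1250 amygdala genes held 13.3% ± 0.539 of the amygdala counts and 3.91% ± 0.388 of the dorsal raphe counts (SD, n = 6 each). The 1244 dorsal raphe genes held 9.93% ± 0.619 of the dorsal raphe counts and 2.96% ± 0.446 of the amygdala counts. These genes were chosen by this same contrast, so their shares are a description. Called genes of under 2-fold held 40.2% and 40.6%, and genes that did not pass 43.4% and 45.4% of the counts in the 2 regions.

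Spread between libraries of a region depended on the libraries that stood apart. The median SD of log2 CPM over genes was 0.204 in amygdala and 0.242 in dorsal raphe, and 58.0% of genes varied more in dorsal raphe. Without amygdala library 3 and dorsal raphe library 5 the medians were 0.128 and 0.179, and 66.2% varied more in dorsal raphe. Leaving out dorsal raphe library 5 alone turned the order (0.204 against 0.179, 43.7% of genes). Which region varied more thus changed with 1 library.

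To read the region difference on genes not chosen in these libraries, the 100 genes with the largest called fold change toward each region were taken from the high-responder libraries, among those with at least 10 CPM. All 100 amygdala genes were tested in low responders and 99 were called higher in amygdala there, where 25.0% of all tested genes were. In 97 of them the regions did not overlap in that direction, as in 17.0% of all tested genes. Of the 100 dorsal raphe genes, 97 were tested, all 97 were called higher in dorsal raphe (25.9% of all tested genes were), and 96 did not overlap (15.8% of all tested genes). The median log2 fold changes were 4.19 in low against 3.93 in high responders for the amygdala genes, and -3.32 against -3.53 for the 97 dorsal raphe genes tested in low responders. Over all 100 dorsal raphe genes the high-responder median was -3.59.

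Levels of these lists separated the low-responder libraries by region. The median level of the amygdala list was 5.36 to 5.74 log2 CPM in amygdala libraries and 1.07 to 1.47 in dorsal raphe libraries. The dorsal raphe list stood at 4.03 to 4.73 log2 CPM in dorsal raphe and 0.61 to 1.57 in amygdala. Amygdala library 3 had the lowest amygdala list value of its region, at 5.36. Amygdala libraries 4 and 6 had higher values of the dorsal raphe list, 1.43 and 1.57, than the other 4, at 0.61 to 0.88. Dorsal raphe library 5 had the highest dorsal raphe list value.

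**Figure D4:**
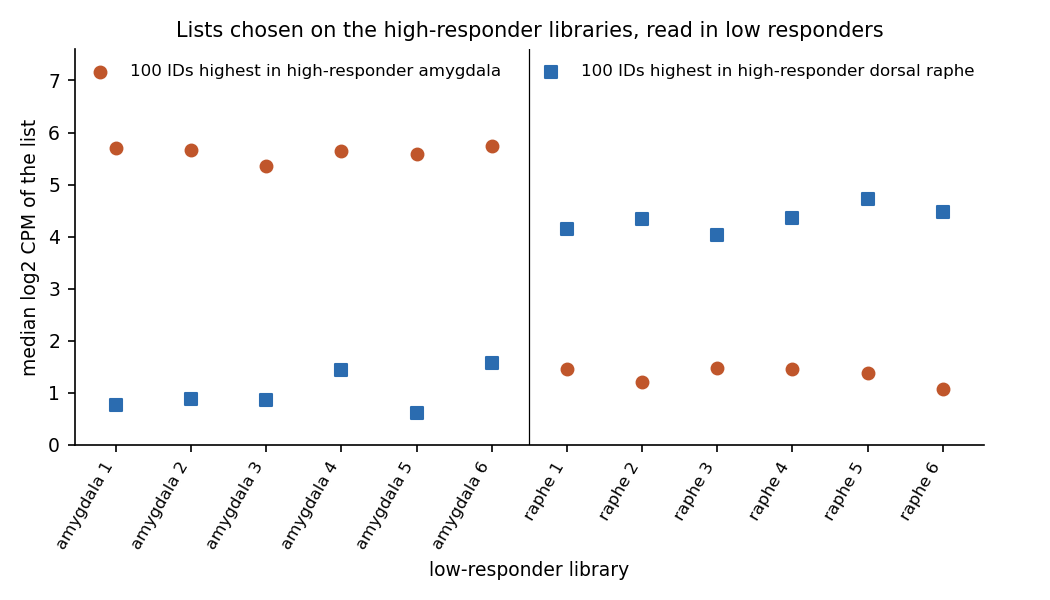
Median log2 CPM, in each of the 12 low-responder libraries, of the 100 IDs with the largest fold change toward amygdala (circles) or dorsal raphe (squares) in the high-responder libraries. The amygdala list lies at 5.36 or above in every amygdala library and at 1.47 or below in every dorsal raphe library, and the dorsal raphe list shows the opposite order.

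The exceptions, named after their values were seen, were uneven between libraries of a region. ENSRNOG00000021229, the amygdala gene that did not pass, had 1028 counts in amygdala library 3 but 2 to 11 in the other 5 amygdala libraries, and 8 to 23 in the dorsal raphe libraries. Library 3 thus held nearly all of its amygdala counts, and the fitted difference of 3.38 on the log2 scale (SE 1.36) did not pass (adjusted p = 0.0524 in edgeR). The 3 dorsal raphe genes that were not tested had too few counts in some dorsal raphe libraries. ENSRNOG00000003569 had 142, 207, 5, 0, 305 and 27 counts in dorsal raphe libraries 1 to 6. ENSRNOG00000012575 had 212, 337, 10, 2, 838 and 65. Both were near 0 in libraries 3 and 4 and highest in library 5, so they moved together within the region. ENSRNOG00000016311 had 5 counts in library 4 and 83 to 202 in the others.

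The region difference was next set beside that of the high responders, where 7479 of 14367 genes (52.1%) passed, 3706 higher in amygdala and 3773 higher in dorsal raphe. Of 7257 genes called in low responders and tested in both lines, 7228 (99.6%) had the same sign in high responders and 6297 (86.8%) were also called with that sign. The 6297 made up 85.1% of the 7403 high-responder calls tested in both. Genes that did not pass in low responders had the same sign in the other line in 5741 of 6965 cases (82.4%). Across 14222 genes, which are not independent of each other, the log2 fold changes of the lines correlated with Pearson's r of 0.966 and Spearman's rho of 0.943. The median difference between the lines in the log2 fold change of a called gene was 0.11 in size, and 93.1% of called genes lay within 0.5.

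Genes called in one line only were not shown to differ between the lines. There were 2064 such genes, 959 called in low and 1105 in high responders only, and the test of the difference itself passed for 0 of them with edgeR. That test, on all 24 libraries, called 1 of 14977 genes (0.00668%), with 458 (3.06%) at an unadjusted p under 0.05. DESeq2 also called 1, with 479 at an unadjusted p under 0.05. Limma voom called 2, with 1655 at an unadjusted p under 0.05, so these numbers depended on the tool. The gene called by limma voom only was ENSRNOG00000030920, at 0.91 on the log2 scale for low minus high responders (limma voom adjusted p = 0.0469). The 95% interval of the difference between the lines lay within 1.5-fold for 8297 genes (55.4%) and within 2-fold for 12049 (80.5%), so for the rest a difference of 2-fold was not bounded at this depth.

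The gene that passed in edgeR was ENSRNOG00000028041, which turned its direction between the lines. In low-responder dorsal raphe it stood at 13.3, 21.4, 13.6, 12.1, 78.9 and 26.4 CPM. In low-responder amygdala it stood at 1.78, 3.76, 3.30, 5.12, 3.68 and 4.02 CPM. Every low-responder dorsal raphe library thus lay above every amygdala library, with library 5 far above the others. In high-responder dorsal raphe the values were 1.35, 0.891, 1.25, 1.28, 1.80 and 1.04 CPM. High-responder amygdala stood at 4.17, 2.14, 3.81, 3.13, 3.47 and 2.14 CPM, above all of its dorsal raphe libraries. On the log2 scale, amygdala minus dorsal raphe was -2.93 in low responders (SE 0.47, adjusted p = 0.000141) and 1.34 in high responders (SE 0.22, adjusted p = 0.000151, both from edgeR). It was the single gene called in both lines with opposite signs. Without low-responder dorsal raphe library 5 the low-responder value was -2.26, and it was -2.11 in the earlier-numbered libraries alone and -3.78 in the later ones, and passed in each.

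**Figure D5:**
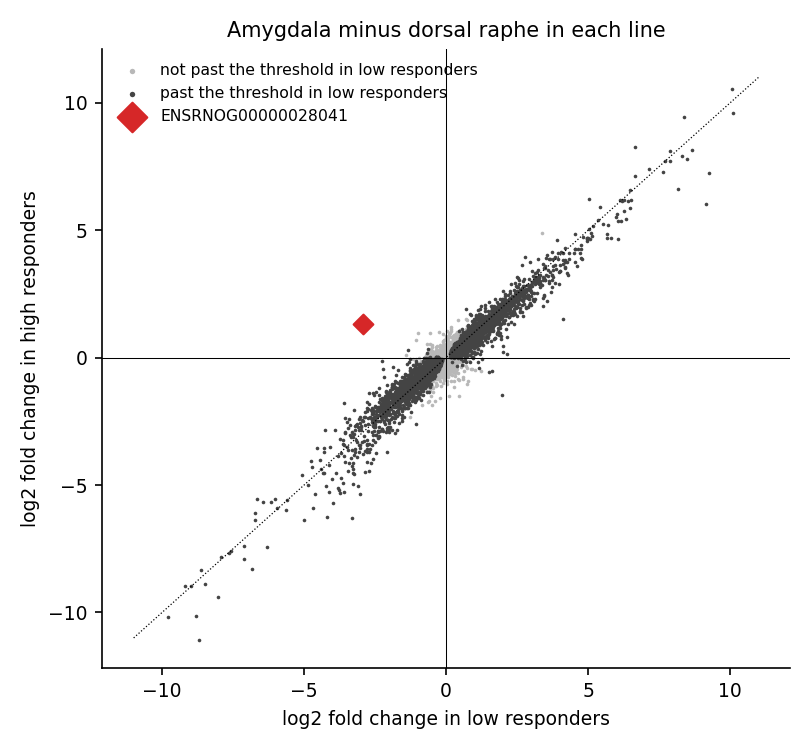
Log2 fold change of amygdala minus dorsal raphe in high responders against that in low responders, 1 point per gene tested in both, with a dotted line where they are equal. Points follow the line (Pearson's r of 0.966 across genes), and ENSRNOG00000028041, the diamond, lies at -2.93 and 1.34.

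The leading genes kept close values across the lines. ENSRNOG00000047891 had a log2 fold change of 10.09 in low and 9.59 in high responders, a difference of 0.51 with a 95% interval of -0.88 to 1.90. ENSRNOG00000003476 stood at -9.79 and -10.18, with a difference of 0.39 and an interval of -1.60 to 2.37. ENSRNOG00000003880 stood at -9.18 and -8.95, with a difference of -0.22 and an interval of -1.57 to 1.12. None of these intervals excludes a change of 2-fold. In high-responder dorsal raphe library 1 the values of the last 2 were 58.2 and 102 CPM, against at least 304 and 412 in the other 5, a gap that no low-responder dorsal raphe library showed. ENSRNOG00000051264 again had 0 counts in all 6 high-responder dorsal raphe libraries and 11.6 to 16.9 CPM in amygdala.

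Library numbers in the table headers fell into an earlier block (libraries 1 to 4 of each region) and a later one (libraries 5 and 6). Both blocks held both regions. The earlier libraries alone called 6587 of 14492 genes tested. Of the 6532 called genes also tested in the later ones, 6045 (92.5%) had the same sign there and 3978 (60.9%) were called with it. The later libraries alone, 2 per region, called 5558 of 14731 genes tested, in either direction. For the leading genes the earlier and later values were close: ENSRNOG00000003476 stood at -9.70 and -10.09.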

How the data were processed

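Amygdala and dorsal raphe RNA of 2 rat lines was sequenced, and the 12 low-responder libraries were analysed, with the 12 high-responder ones for comparison. Poly-A libraries followed miRNeasy extraction, per the labels' protocols. Trim Galore, STAR and the build rn6 were used, per the submitters' processing notes. The counting program, annotation, strand setting and treatment of shared reads are not given in the sources used here, so IDs of near-identical or overlapping genes are uncertain. The deposited values are raw counts per gene, 1 table per library, with 0 lines that name no gene.

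Libraries were grouped by their titles. Counts were filtered with filterByExpr, scaled by TMM and tested with edgeR 4.0.16 in R 4.3.3 (glmQLFit and glmQLFTest), with Benjamini-Hochberg adjusted p under 0.05 as threshold. The SE is the absolute log2 fold change over the root of the F statistic, and 95% intervals use the test's degrees of freedom. CPM values used the TMM factors of each line. Log2 CPM used a prior count of 2. Every pair of libraries of a region differed by more than counting noise (lowest chi-square over its degrees of freedom 3.46). In simulated counts with 200 changed genes, the low-responder test (14333 genes) recovered 44.8% of 1.5-fold, 74.6% of 2-fold and 97.0% of 4-fold changes, with 2.70% false calls. The test between lines (14835 genes) recovered 29.9%, 50.7% and 92.4%, with 4.96% false calls. The region comparison of the data called 7353 genes, far more than the 200 changed in the simulation. The test between lines called 1 gene in the data, against 121 calls in its simulation. The adjusted threshold depends on the number of calls. Each simulated gene also had 1 mean for all groups before the changes were added. The simulated rates are thus not the rates of either reported test.

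Named genes are the 2 largest log2 fold changes toward each region with at least 10 CPM and no overlap, and genes past the test between lines. The rule allowed 12 per region with symbols. The listed pathway and marker genes could not be applied without symbols. Members and lists were chosen with earlier results of these data known. Alternatives were RLE and library size scaling, other filters, DESeq2 1.42.0, limma 3.58.1 voom, a fold of 1.2, a replicate block, library number blocks, all 24 libraries, and leaving out libraries.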

Additional observations from a re-analysis of the deposited data

Results flagged for a closer look

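In 6 of 27 sets of 6 values, 1 library lay far from its 5 neighbours, and a chance rate of 1 in 20 gives 1.35 such sets. Several come from the same library, so they are not independent. Amygdala library 3 held 3.80% of its counts in its 10 most counted IDs, lay at 55.13 on the third principal component and had 139.8 CPM of ENSRNOG00000047891, against at most 121 CPM in the others. Dorsal raphe library 5 held 15.2% of its counts in its 10 most counted IDs and had 78.9 CPM of ENSRNOG00000028041, against at most 26.4 CPM. Amygdala library 2 had 1.51 CPM of ENSRNOG00000003476, where the other 5 reached 0.424 CPM. These values came from 18 counts in library 2 and 3 to 5 in each of the others.

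ENSRNOG00000028041 had a region difference that differed between the lines by -4.28 on the log2 scale (low minus high responders, SE 0.58, edgeR adjusted p = 0.00195 over all 24 libraries). All 6 low-responder dorsal raphe libraries lay above the low-responder amygdala libraries, and all 6 high-responder ones below the high-responder amygdala libraries.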

How the results depend on the processing

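All alternatives kept the number of genes called between regions within 1.5 times of 7353: from 5199 against a fold of 1.2 to 9019 with limma voom, 8619 without amygdala library 3 and dorsal raphe library 5, and 6873 to 7937 when each library was left out in turn. The last range was 3341 to 3853 for genes higher in amygdala and 3476 to 4084 for those higher in dorsal raphe. The test between the lines called 2 genes with limma voom, where 1655 had an unadjusted p under 0.05, and 1 in every fit that left out a low-responder library. ENSRNOG00000028041 was called in all of these, at -4.43 to -3.60 on the log2 scale. The difference in library totals was 422093 to 1252823 counts when each library was left out and never passed. With the replicate number as a block the region comparison called 6784 genes. Same-numbered libraries correlated in their deviations at -0.10 to 0.15, and 0 of 6 amygdala libraries matched best with their own number. These values cannot tell whether same-numbered libraries came from the same rat, since rats need not deviate alike in both regions. The median standard error on the log2 scale was 0.33 under 1 CPM, 0.23 at 1 to 10 CPM and 0.10 above 100 CPM. The alternatives without mitochondrially encoded genes and on the gene lists were not run, since symbols were lacking. The fits without the 10 most counted IDs (7357 calls) and without libraries 3 and 5, the fits of library measures and the high-responder alternatives (7375 to 8539 calls) were chosen after seeing the data.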
